A study of Homo sapiens with 8 samples.

Results

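TAK-981, an inhibitor of the SUMO-activating enzyme, was given alone to KG1a cells and compared with vehicle across the transcriptome. The comparison rests on 4 of the 8 libraries of the study, 2 with vehicle and 2 with TAK-981, and covers the 12843 genes of 25168 in the deposited table that had enough counts to be tested. KG1a is an established, CD34-positive line derived from acute myeloid leukemia, and here it was cultured in IMDM medium with 10% serum. Vehicle was DMSO and TAK-981 was given at 5 µM, both for 48 h. The other 4 libraries of the study held 1 µM venetoclax, a BCL2 inhibitor, with or without 5 µM TAK-981, also for 48 h. They entered the gene filter, the scaling and the estimate of spread behind each p-value. They also gave the TAK-981 effect in venetoclax-treated cells and its difference from the effect of TAK-981 alone. All 8 libraries come from 1 line, and whether replicates were grown as separate cultures is not stated in the labels. What a p-value weighs here is the spread of these libraries only, and that spread may be technical. In a culture, fewer cells of a kind and less RNA per cell cannot be told apart.

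SUMO is a small protein that is joined to lysines of other proteins by a cascade of an activating enzyme (the SAE1 and UBA2 dimer), a conjugating enzyme and ligases, and is removed by SENP proteases. SUMO is attached to many transcription factors and chromatin proteins, often with a repressive effect on transcription, and to proteins of DNA replication, repair and chromosome segregation. TRIM28, a SUMO ligase and a corepressor for KRAB zinc finger proteins, is a well-known node of this kind of repression.

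The vehicle libraries held 22777546 and 23819348 counts and the TAK-981 libraries 22995342 and 18161522. Over 9885 genes of at least 5 CPM (a gene's counts scaled to the size of its library), the 2 vehicle libraries differed by a median of 0.0972 log2 units and the 2 TAK-981 libraries by 0.0882, against 0.263 for the venetoclax libraries. The spread was estimated over all 8 libraries, so the wider venetoclax libraries entered the test. CD34 stood at 982 and 953 CPM in vehicle and 1263 and 1252 with TAK-981, and the leukocyte marker PTPRC at 830 and 808, then 687 and 617. Both markers that define the line were thus abundant in the 4 libraries. The noncoding RNAs that serve as signs of RNA quality summed to 4666 and 4391 CPM in vehicle and to 7784 and 5028 with TAK-981, of which MALAT1 gave 3281, 3074, 6152 and 3496. TAK-981 replicate 1 stood above the other 3 libraries in that sum, and without it 376 genes were called, 256 higher and 120 lower, all of them also called with it. Among these 15 RNAs, RN7SK rose (log2 fold change 1.24, SE 0.296, adjusted p = 0.0276). It was not called without vehicle replicate 1, vehicle replicate 2 or TAK-981 replicate 1.

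Which genes change when SUMO activation is inhibited was asked gene by gene. Of the 12843 genes, 1562 (12.2%) were called at an adjusted p under 0.05 by edgeR's quasi-likelihood test, 768 higher (5.98%) and 794 lower (6.18%). Rises and falls were similar in number but not in size: 393 genes (3.06%) rose by more than 2-fold and 113 (0.88%) fell by more than 2-fold. The levels of the 2 groups did not overlap for any of the 1562, and they did not overlap for 65.3% of all genes tested. The count was 4096 with the 4 libraries alone and 3863 without both venetoclax libraries, and 1551 and 1560 of the 1562 were among them. Without vehicle replicate 1 or 2 it was 385 and 391, and without TAK-981 replicate 1 or 2 it was 376 and 336, of which 60.9% to 71.1% were higher against 49.2% with all 8 libraries. Without venetoclax replicate 1 or 2 it was 3879 and 3865. A group with 1 library left is assumed in these fits to vary like the other groups.

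The rises of more than 2-fold came from a different part of the expression range than the falls. Of the 393 genes, 189 (48.1%) stood under 1 CPM in vehicle, against 7 of the 113 (6.2%) that fell by more than 2-fold and 1336 (10.4%) of all genes tested. The median vehicle level was 1.12 CPM for the first set and 6.41 CPM for the second. Genes that changed by up to 2-fold were mostly well expressed in vehicle, with medians of 36.2 CPM for the 375 that rose and 78.2 CPM for the 681 that fell. A low gene enters the test when it is counted in 1 group, and a low gene has little room to fall, so the counts partly set these shares.

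**Figure D1:**
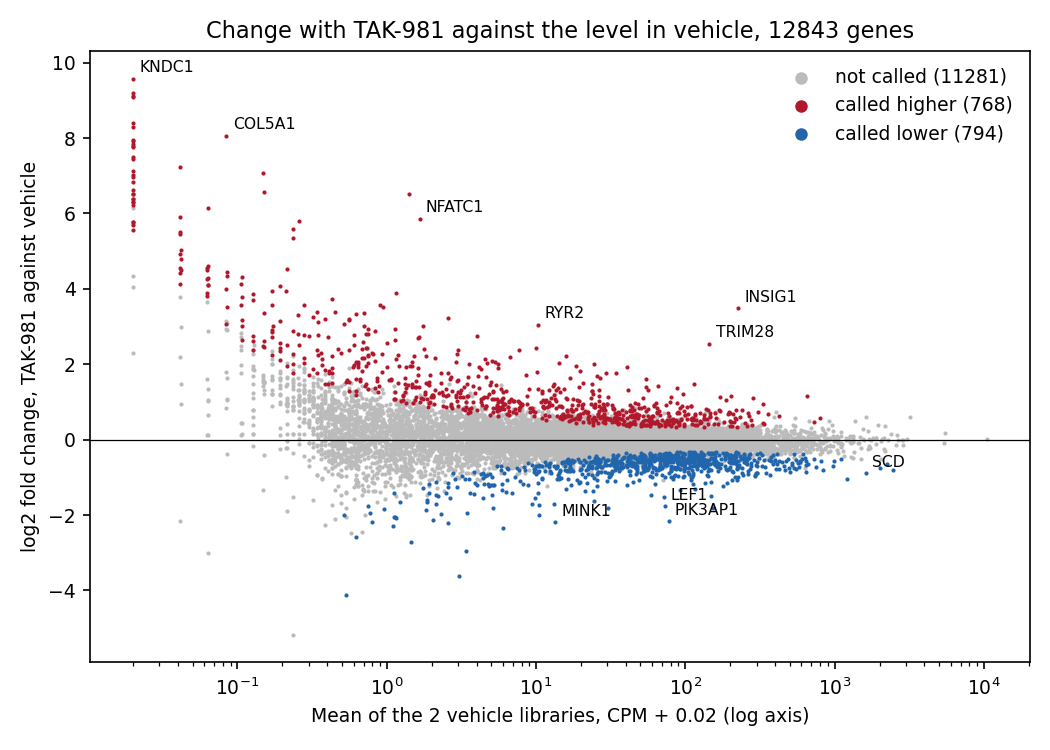
Log2 fold change of TAK-981 against vehicle (y axis) for each of the 12843 genes tested, over its mean level in the 2 vehicle libraries in CPM on a log axis, with called genes in red (768 higher) and blue (794 lower). The largest rises lie at the low end of the axis, where 189 of the 393 rises of more than 2-fold started under 1 CPM, while INSIG1 and TRIM28 rose from levels above 100 CPM.

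The largest rises among genes of at least 5 CPM on average included a collagen, transcription factors and a receptor. COL5A1, a chain of the fibrillar type V collagen (chr9:134641774-134844843, hg38, plus strand), had 1 and 2 counts with vehicle and 487 and 315 with TAK-981. Scaled to library size that is a ratio of 296, with a 95% counting interval of 101 to 1440 (edgeR adjusted p = 9.17e-06). UNC13A, which primes synaptic vesicles for release, stood at 0.130 and 0.128 CPM in vehicle and 20.5 and 15.99 CPM with TAK-981 (log2 fold change 7.08, SE 0.525, adjusted p = 9.98e-05). CUX2, a homeobox transcription factor of neurons, went from 0.174 and 0.0854 CPM to 12.98 and 12.5 CPM (6.56, SE 0.319, adjusted p = 1.06e-05). These 3 genes were close to silent in vehicle and were read in both TAK-981 libraries. NFATC1, a calcium-regulated transcription factor (chr18:79395856-79529325, hg38, plus strand), went from 1.87 and 1.41 CPM to 87.5 and 103 CPM (5.86, SE 0.181, adjusted p = 1.07e-06). DPEP1, a membrane dipeptidase, went from 0.130 and 0.299 CPM to 10.6 and 10.7 CPM (5.59, SE 0.37, adjusted p = 5.55e-05). MRC1, the macrophage mannose receptor, rose from 1.17 and 1.11 CPM to 18.2 and 15.9 CPM (3.90, SE 0.258, adjusted p = 5.55e-05). For these 3 as well, both TAK-981 libraries stood far above both vehicle libraries.

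Further large rises belonged to the butyrophilin BTN1A1 (log2 fold change 3.57), the C-type lectin CLEC4E (3.51), the sterol sensor partner INSIG1 (3.48), the morphogen SHH (3.24), the ryanodine receptor RYR2 (3.05), the lectin ZG16B (2.74), LOXHD1 (2.72), PLEKHA6 (2.69) and TRIM28 (2.54). RYR2, a calcium release channel best known from heart muscle, stood at 10.4 and 10.2 CPM in vehicle and 89.9 and 81.3 CPM with TAK-981 (SE 0.189, adjusted p = 5.16e-05). The 15 largest rises kept their calls without each of the vehicle and TAK-981 libraries in turn.

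The largest falls were smaller. MINK1, a kinase of the germinal center kinase family, stood at 15.3 and 11.4 CPM in vehicle and 3.09 and 2.78 CPM with TAK-981 (log2 fold change -2.18, SE 0.205, adjusted p = 0.000347). PIK3AP1, an adaptor that links receptors to PI3K, stood at 76.1 and 78.7 CPM and then at 17.5 and 17.2 CPM (-2.16, SE 0.185, adjusted p = 0.000231). MMP7, a matrix metalloproteinase, stood at 10.2 and 10.5 CPM and then at 2.28 and 2.89 CPM (-2.01, SE 0.21, adjusted p = 0.000627). The groups of these 3 genes were far apart compared with the gap between replicates. GPT2, the mitochondrial alanine aminotransferase, stood at 152 and 153 CPM and then at 41.3 and 44.9 CPM (-1.82, SE 0.133, adjusted p = 9.24e-05). LEF1, a transcription factor at the end of the Wnt pathway, stood at 71.9 and 73.5 CPM and then at 22.3 and 20.3 CPM (-1.77, SE 0.121, adjusted p = 6.65e-05). Others in order were the homeobox gene UNCX (-1.81), IGSF11 (-1.74), the tenascin TNN (-1.70), the BMP antagonist NOG (-1.63), the axon guidance receptor ROBO2 (-1.56), STAMBPL1 (-1.52), the cadherin CDH2 (-1.51), the ferrireductase STEAP3 (-1.46), ABTB2 (-1.41) and MS4A7 (-1.35). TNN, NOG and ABTB2 lost the call when single libraries were left out: vehicle replicate 1, vehicle replicate 2 and TAK-981 replicate 1 for each of them, and also TAK-981 replicate 2 for NOG.

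**Figure D2:**
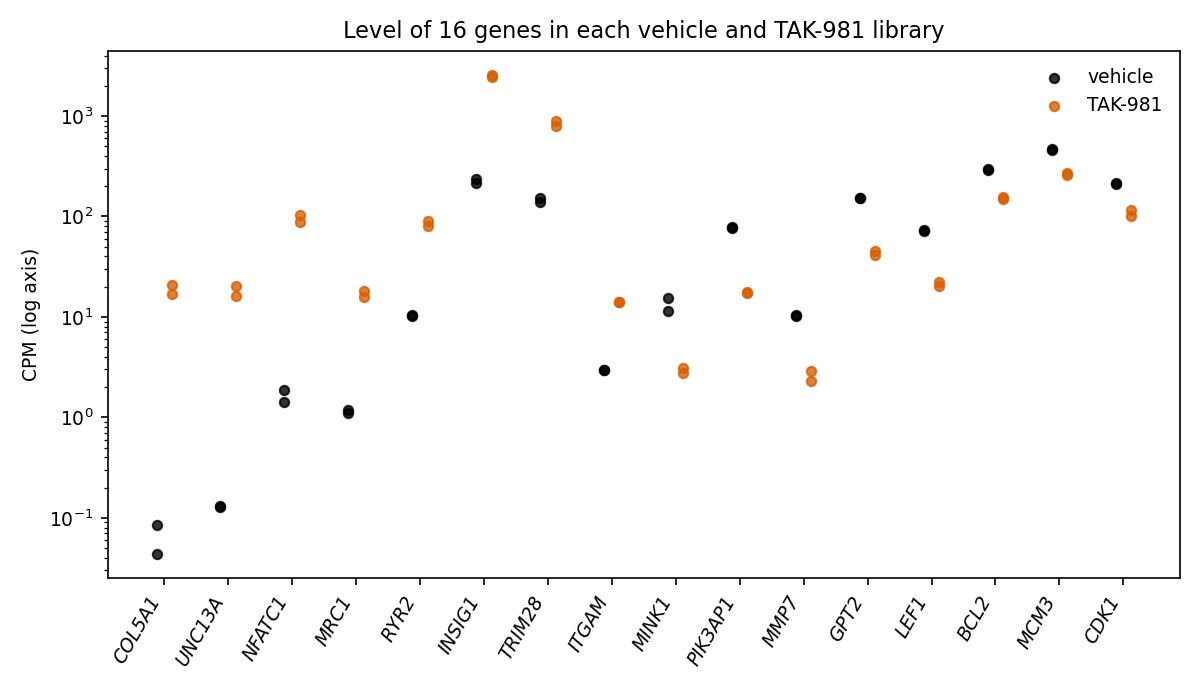
Level in CPM on a log axis of 16 genes in each of the 2 vehicle libraries (black) and the 2 TAK-981 libraries (orange), 1 point per library. The groups do not overlap for any of the 16 genes, which the rule required of the largest rises and falls among them. They do not overlap for 65.3% of all genes tested. Heights of different genes cannot be compared, since CPM does not account for gene length.

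A set of genes had next to no counts in vehicle. With 3 counts or fewer over both vehicle libraries and at least 50 over both TAK-981 libraries, 19 genes met the definition, while 0 genes met it in the opposite direction. The 19 were called, but the definition uses the same counts as the test, so the calls add no support. KNDC1, a brain exchange factor with a KIND domain, had 0 counts in vehicle and 98 and 97 with TAK-981, which is at least 71.9-fold higher when the vehicle group is set to 3 counts. TRIM67, a ubiquitin ligase of the nervous system, had 0 and 1 counts and then 86 and 87, a ratio of 191 (95% counting interval 33.9 to 7610). CRIP2, a LIM domain protein, had 0 counts and then 73 and 76, at least 55.0-fold higher. These genes were read in both TAK-981 libraries at close counts. The sialic acid lectin SIGLEC15 had 2 and 0 counts and then 75 and 69, a ratio of 79.7 (21.7 to 664). LMTK3, TDRG1, MROH2A and GAS6 had 0 counts in vehicle and 143, 138, 88 and 82 over the TAK-981 libraries, at least 52.8-fold, 50.9-fold, 32.5-fold and 30.2-fold higher. SNX9, a sorting nexin, had 1 count and then 69, a ratio of 76.4 (13.3 to 3060). The intervals and floors cover counting error only. The same pattern was read in the other arm of the study, with 0 counts of KNDC1 in the venetoclax libraries and 274 with both drugs, and 0 and 181 counts of LMTK3.

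Among the replication, repair and mitosis lists, that of the replicative helicase had the largest share of falls. The replicative helicase is loaded on DNA as the MCM ring, activated by the GINS complex, and followed by the polymerases and their clamp. Of 23 tested genes of the helicase and its loading, 16 fell and 0 rose (69.6% lower against 6.18% of all genes), with a median log2 fold change of -0.69 against 0.0015 for all genes. MCM6 stood at 308 and 300.5 CPM in vehicle and 159 and 168 CPM with TAK-981 (log2 fold change -0.89, SE 0.11, adjusted p = 0.00147). MCM3 stood at 474 and 454 CPM and then at 259 and 268 CPM (-0.82, SE 0.103, adjusted p = 0.00164). GINS1 stood at 81.7 and 79.2 CPM and then at 44.7 and 45.0 CPM (-0.84, SE 0.0995, adjusted p = 0.00118). The 3 genes thus fell to a little over 0.5 times their vehicle level, with both TAK-981 libraries below both vehicle libraries. GINS2 (-1.07), the origin recognition gene ORC1 (-0.84) and MCM4 (-0.79) also fell, and of these ORC1 and MCM4 lost the call when single vehicle or TAK-981 libraries were left out. The count of falls in the list was 19 with the 4 libraries alone, 8 and 9 without vehicle replicate 1 or 2, and 7 and 5 without TAK-981 replicate 1 or 2.

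The promoters of these genes are shown because replication genes are classic targets of E2F transcription factors and mitotic genes of a repressor complex that reads the cell cycle genes homology region (CHR). The genes shown are the called members of the helicase list with the smallest p whose window holds an E2F-type word. Its presence in them was thus fixed by the choice. The windows run from 250 bases before to 50 bases after the transcription start, as listed by RefSeq on GRCh38.p14, and are written 5′ to 3′ on the strand of the gene. They are chr20:25407423-25407722 on the plus strand for GINS1, chr2:135876394-135876693 on the minus strand for MCM6 and chr6:52284693-52284992 on the minus strand for MCM3. Capitals mark the E2F-type words TTTCCCGC, TTTGGCGC and TTTCGCGC, searched on both strands, where matches on opposite strands can overlap.
GINS1: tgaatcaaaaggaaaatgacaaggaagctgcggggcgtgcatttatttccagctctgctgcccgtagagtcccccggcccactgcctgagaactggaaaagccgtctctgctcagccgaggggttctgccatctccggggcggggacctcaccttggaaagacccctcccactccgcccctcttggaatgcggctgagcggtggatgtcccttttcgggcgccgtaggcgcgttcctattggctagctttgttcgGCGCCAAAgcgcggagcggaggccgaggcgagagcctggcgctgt
MCM6: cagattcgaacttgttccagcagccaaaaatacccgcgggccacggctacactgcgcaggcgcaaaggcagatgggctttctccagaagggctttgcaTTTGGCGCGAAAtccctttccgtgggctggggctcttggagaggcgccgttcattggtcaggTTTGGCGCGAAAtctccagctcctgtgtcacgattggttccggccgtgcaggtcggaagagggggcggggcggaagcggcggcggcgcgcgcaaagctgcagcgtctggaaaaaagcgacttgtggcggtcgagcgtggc
MCM3: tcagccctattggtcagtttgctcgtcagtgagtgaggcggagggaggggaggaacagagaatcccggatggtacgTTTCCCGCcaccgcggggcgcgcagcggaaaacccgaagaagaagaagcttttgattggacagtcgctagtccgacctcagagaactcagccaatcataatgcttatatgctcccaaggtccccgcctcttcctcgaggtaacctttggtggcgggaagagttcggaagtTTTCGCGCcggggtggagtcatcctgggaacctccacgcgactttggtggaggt

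At least 1 of the 3 words was in the window of 10 of 20 helicase genes with a listed promoter, of 10 of 26 polymerase and clamp genes (38.5%) and of 5 of 58 kinetochore, spindle and cytokinesis genes (8.6%). It was in 2.8% of the 27305 promoters of the table and in 4.6% of those of tested genes. Among genes that fell 10.2% held a word, and among genes that rose 3.0% did. Outside the lists of cell cycle genes it was 6.4% of the 543 that fell against 4.3% of the 10115 tested. Read the other way, 66 of the 480 tested genes with a word fell (13.8%) and 18 rose (3.8%). Chromosome 8 was left out of these counts, and a listed promoter was found for 85.6% of the other genes that fell and 80.7% of those that rose. A match describes the letters and does not show a bound site.

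Of 30 polymerase, primase, clamp and ligase genes, 19 fell and 2 rose (63.3% lower), with a median of -0.58. PCNA, the sliding clamp, stood at 225 and 219 CPM and then at 132 and 129 CPM (log2 fold change -0.77, SE 0.105, adjusted p = 0.00228). PRIM1, the primase catalytic subunit, stood at 25.7 and 25.8 CPM and then at 12.03 and 9.79 CPM (-1.23, SE 0.171, adjusted p = 0.00238). The fall of PRIM1 was among the larger ones of the list, beside POLD3 (-0.99), RFC5 (-0.94) and LIG1 (-0.80). The exceptions were POLE, the catalytic subunit of the leading-strand polymerase, at 236 and 201 CPM and then 316 and 319 CPM (log2 fold change 0.54), and POLD4, a small subunit of polymerase delta, at 20.1 in both vehicle libraries and then 36.1 and 40.5 CPM (0.93). Nucleotide synthesis genes fell in 13 of 30 cases with a median of -0.43, among them the thymidylate synthase TYMS (-0.89), GMPS (-0.63), the dUTPase DUT (-0.68) and the ribonucleotide reductase subunit RRM1 (-0.58). The falls were 26 in the polymerase list and 25 in the nucleotide list with the 4 libraries alone. Without vehicle replicate 1, vehicle replicate 2, TAK-981 replicate 1 and TAK-981 replicate 2 they were 5, 8, 7 and 4 in the polymerase list and 3, 3, 3 and 0 in the nucleotide list. LIG1, POLE, POLD4 and the 4 nucleotide genes named were not called in at least 1 of these fits.

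Mitotic genes fell in 34 of 68 cases and rose in 0, with a median of -0.59. ZWINT, a kinetochore scaffold protein, stood at 148 and 137.5 CPM in vehicle and 82.6 and 76.3 CPM with TAK-981 (log2 fold change -0.84, SE 0.11, adjusted p = 0.00185). The condensin subunit NCAPH (-0.89), the kinase AURKA (-0.73), the checkpoint protein BUB3 (-0.63) and the kinetochore proteins DSN1 (-0.76) and SPC24 (-0.86) fell as well. With the 4 libraries alone 60 of the 68 fell, and without vehicle replicate 1, vehicle replicate 2, TAK-981 replicate 1 and TAK-981 replicate 2 the count was 4, 6, 6 and 3. BUB3, DSN1, SPC24, NCAPD2 and KIF18A were not called in at least 1 of these fits. The next windows are of the called genes of the list with the smallest p that hold the CHR word. The presence of the word in them was thus fixed by the choice. NCAPH, AURKA, BUB3, DSN1 and SPC24 had smaller p than NCAPD2 and KIF18A, but no match or no listed window. Capitals in the next windows mark the CHR word TTTGAA, searched on both strands, in 3 mitotic genes of the list, for chr10:56361210-56361509 on the minus strand (ZWINT), chr12:6493852-6494151 on the plus strand (NCAPD2) and chr11:28108107-28108406 on the minus strand (KIF18A), again from RefSeq on GRCh38.p14.
ZWINT: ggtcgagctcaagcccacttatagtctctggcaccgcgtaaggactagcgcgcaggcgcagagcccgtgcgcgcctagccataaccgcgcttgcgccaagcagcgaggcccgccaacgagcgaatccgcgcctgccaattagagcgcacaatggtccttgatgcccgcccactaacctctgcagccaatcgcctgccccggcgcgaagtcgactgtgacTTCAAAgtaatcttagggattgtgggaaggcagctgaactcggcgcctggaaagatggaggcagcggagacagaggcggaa
NCAPD2: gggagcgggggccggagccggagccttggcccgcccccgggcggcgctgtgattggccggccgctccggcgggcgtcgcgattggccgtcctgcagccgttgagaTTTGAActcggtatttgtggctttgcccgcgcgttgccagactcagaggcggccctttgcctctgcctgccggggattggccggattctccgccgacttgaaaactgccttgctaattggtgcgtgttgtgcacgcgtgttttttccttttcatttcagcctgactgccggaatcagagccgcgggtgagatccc
KIF18A: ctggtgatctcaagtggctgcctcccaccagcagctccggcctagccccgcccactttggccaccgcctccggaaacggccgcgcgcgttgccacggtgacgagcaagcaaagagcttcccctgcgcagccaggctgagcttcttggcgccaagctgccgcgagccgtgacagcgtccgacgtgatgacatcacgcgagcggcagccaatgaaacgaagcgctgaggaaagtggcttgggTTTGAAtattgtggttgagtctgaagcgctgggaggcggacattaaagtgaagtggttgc

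The word TTTGAA was in the window of 40 of 58 mitotic genes (69.0%) and of 1 of 20 helicase genes (5.0%), against 15.4% of all promoters of the table and 10.2% of those of tested genes. Among genes that fell it was in 15.5% and among genes that rose in 10.4%. The helicase and mitotic lists thus differ in the words of their promoters, while their median changes were -0.69 and -0.59. Being 6 letters long, the word occurs often, and of 1057 tested genes with it 100 fell (9.5%) and 63 rose (6.0%).

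The regulators of the cycle moved less uniformly. Of 20 cyclin and kinase genes 8 fell and 0 rose, led by CDK1, the mitotic kinase, at 213 and 217 CPM and then 116 and 100.3 CPM (log2 fold change -0.99, SE 0.124, adjusted p = 0.00161), and WEE1, its inhibitory kinase (-0.84). The phosphatases CDC25A (-0.54) and CDC25C (-0.95) and the cyclins CCND2 (-0.73) and CCNB2 (-0.65) fell too. In the E2F and RB family 4 of 20 fell: E2F1 (-0.80), E2F5 (-0.53), E2F7 (-0.69) and RBL1 (-0.76). Of the 7 tested inhibitors of cyclin-dependent kinases 2 rose, CDKN2D from 7.86 and 6.27 CPM to 14.4 and 14.1 CPM (log2 fold change 1.01) and CDKN1C from 0.478 and 0.171 CPM to 1.29 and 1.87 CPM (2.25). CDKN1A, which encodes the inhibitor p21, stood at 1.74 and 1.88 CPM and then at 1.72 and 2.25 CPM (0.12, SE 0.267, adjusted p = 0.823). CDK1 and WEE1 kept their calls without each of the vehicle and TAK-981 libraries, and the other genes named here as changed lost the call when 1 or more of these 4 libraries was left out singly.

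DNA repair and checkpoint genes fell in 27 of 42 cases and rose in 0 (64.3% lower), with a median of -0.59. RMI2, a subunit of the BLM dissolvasome, fell most clearly, from 62.02 and 63.05 CPM to 27.5 and 27.4 CPM (log2 fold change -1.19, SE 0.117, adjusted p = 0.00046). RAD51AP1 (-0.96), the exonuclease EXO1 (-0.92), FANCI (-0.94) and the checkpoint kinase CHEK1 (-0.91) fell, and of these CHEK1 was not called without TAK-981 replicate 2. The falls numbered 37 with the 4 libraries alone and 9, 12, 9 and 6 without vehicle replicate 1, vehicle replicate 2, TAK-981 replicate 1 and TAK-981 replicate 2. Several of these genes rise in S phase in cycling cells, so the list is not independent of the replication list.

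**Figure D3:**
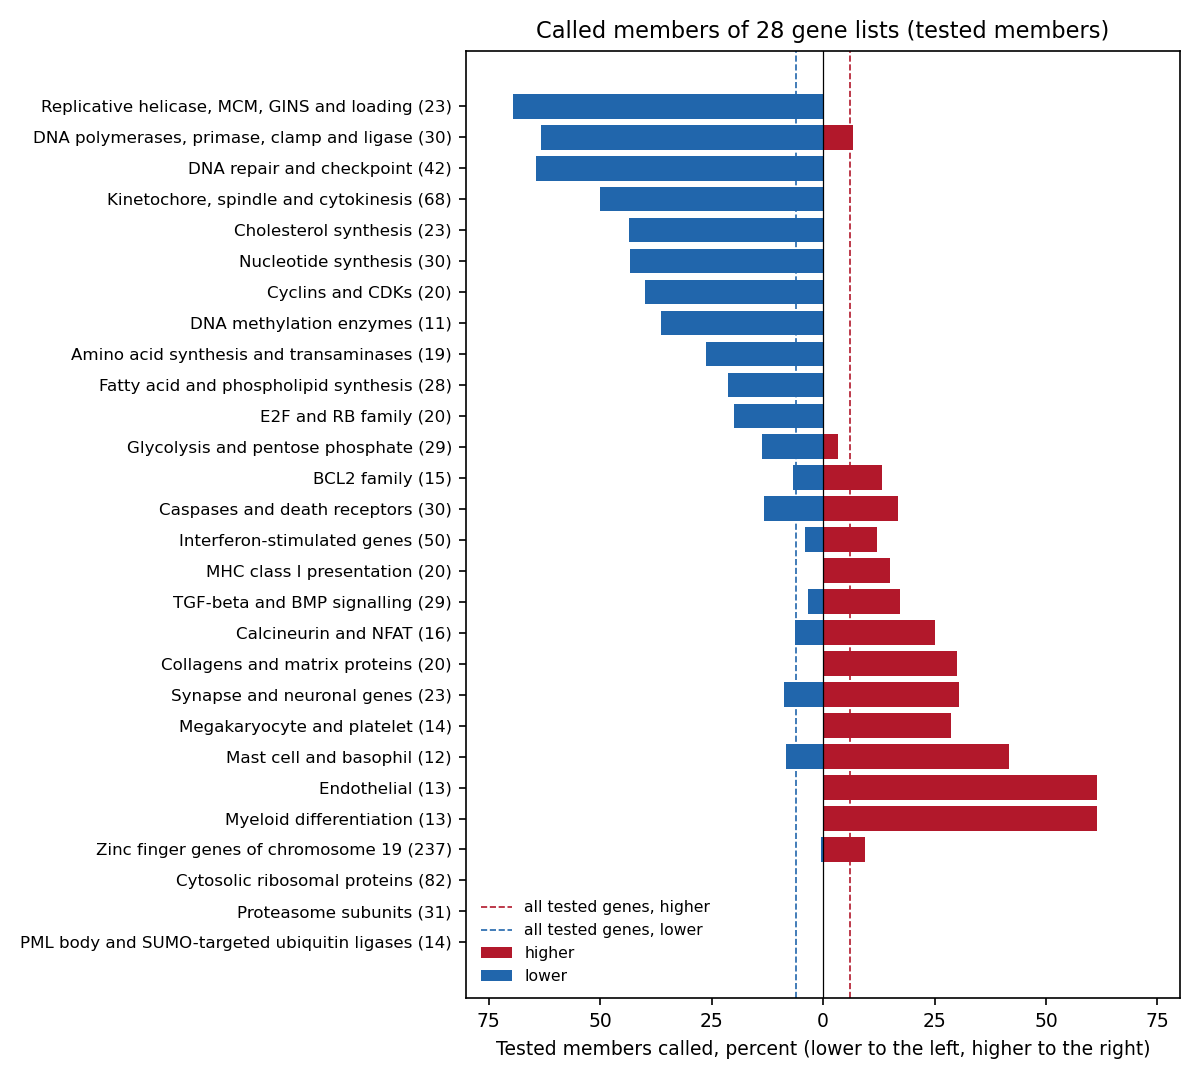
Percent of the tested members of 28 gene lists that were called lower (blue, to the left) or higher (red, to the right) with TAK-981, with the number of tested members in parentheses. Dashed lines mark the percent of all tested genes, 6.18% lower and 5.98% higher. Replication, repair and mitosis lists lie far to the left, up to 69.6% for helicase loading, and the cytosolic ribosomal protein, proteasome and PML body lists have no member called.

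The SUMO machinery was asked next, since it is the pathway the drug acts on. SAE1, the small subunit of the target enzyme, stood at 286 and 300.0 CPM in vehicle and 237 and 227 CPM with TAK-981 (log2 fold change -0.34, SE 0.116, adjusted p = 0.0924). UBA2, its catalytic subunit, stood at 518.5 and 554.5 CPM and then at 425 and 396 CPM (-0.39, SE 0.109, adjusted p = 0.0492). SUMO3 stood at 147 and 163 CPM and then at 204 and 205 CPM (0.40, SE 0.0942, adjusted p = 0.0255). UBA2 fell and SUMO3 rose, each by less than 1.5-fold, and neither was called without any 1 of vehicle replicate 1, vehicle replicate 2, TAK-981 replicate 1 or TAK-981 replicate 2. SUMO2 had a log2 fold change of 0.07 (SE 0.125, adjusted p = 0.784). Of 9 SUMO proteases 0 were called by edgeR's quasi-likelihood test, with 2 lower at an unadjusted p under 0.05 and 0 called by DESeq2 or limma-voom. Of 14 genes of PML bodies and SUMO-targeted ubiquitin ligases 0 were called as well, with 1 higher at an unadjusted p under 0.05 and 0 called by the other tools, and PML had a log2 fold change of 0.03. Protein SUMOylation itself was not measured.

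Of 11 SUMO ligases TRIM28 was called (9.1% higher, against 5.98% of all genes). With the 4 libraries alone or without both venetoclax libraries 5 of the 11 rose, in fits where 16.2% and 14.5% of all genes were higher. TRIM28 lies on chromosome 19 (58544091 to 58550722, hg38, plus strand) and stood at 151 and 138 CPM in vehicle and 795 and 894 CPM with TAK-981, 5.83-fold higher (log2 fold change 2.54, SE 0.27, adjusted p = 0.000704). The call held without each of the 4 libraries, and in venetoclax-treated cells the log2 fold change was 2.31 (adjusted p = 0.000512). The other 10 ligases, among them PIAS1, PIAS2, PIAS3, PIAS4 and RANBP2, lay between -0.14 and 0.36. Of 33 tested genes of heterochromatin and repressor complexes, ATF7IP2 (0.41) and the remodeler CHD3 (0.70) rose, and ZBTB16 (-1.20) and CBX5, which encodes HP1 alpha (-0.89), fell, 6.1% each way and near the share of all genes. The counts in this list were 6 higher and 13 lower with the 4 libraries alone, where 16.2% and 16.4% of all genes were called, and 2 and 10 for TAK-981 in venetoclax-treated cells. CBX5 stood at 361 and 332 CPM and then at 195 and 179.5 CPM (SE 0.11, adjusted p = 0.00154). DNA methylation enzymes fell in 4 of 11 cases: the maintenance methyltransferase DNMT1 (-0.79), its hemimethylated DNA reader UHRF1 (-0.87), UHRF2 (-0.70) and the de novo enzyme DNMT3B (-0.51). DNMT1 stood at 582 and 516 CPM and then at 331 and 304 CPM, with both TAK-981 libraries lower. Without at least 1 of the 4 libraries the calls of ATF7IP2, CHD3, DNMT1, UHRF1, UHRF2 and DNMT3B ended, and those of ZBTB16 and CBX5 did not.

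Chromosome 19, which carries most KRAB zinc finger genes, had the largest share of rises of any chromosome. Of 985 tested genes there 106 rose (10.8%) and 17 fell (1.7%), against 5.6% and 6.6% of genes on the other chromosomes together. Each other chromosome had 3.7% to 8.8% of its genes higher and 3.9% to 10.0% lower. The zinc finger genes were not the main part of it: 84 of the 106 belong to other families, and the share of rises was 11.2% among the 748 other genes and 9.3% among the 237 zinc finger genes, of which 1 fell. Promoter GC content was read without chromosome 8 and for genes with a listed promoter, 826 of the 985 on chromosome 19. Its median was 64.0% on chromosome 19 against 65.0% on the remaining chromosomes. Within 4 equal bins of these genes by promoter GC, 9.9% to 13.3% rose on chromosome 19 and 4.1% to 6.8% on the remaining chromosomes. The shares on chromosome 19 were 26.2% higher and 7.5% lower with the 4 libraries alone, against 15.3% and 17.1% elsewhere. Without 1 of the vehicle or TAK-981 libraries, 3.2% to 3.7% were higher and 0.0% to 0.4% lower, against 1.7% to 1.8% and 0.8% to 1.2% elsewhere. In venetoclax-treated cells, which are other libraries, 30.9% of the genes of chromosome 19 were higher with TAK-981 and 8.5% lower, against 16.5% and 23.1% elsewhere. There the shares differed between families, with 36.6% higher and 5.9% lower among the other genes and 12.7% and 16.9% among zinc finger genes.

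**Figure D4:**
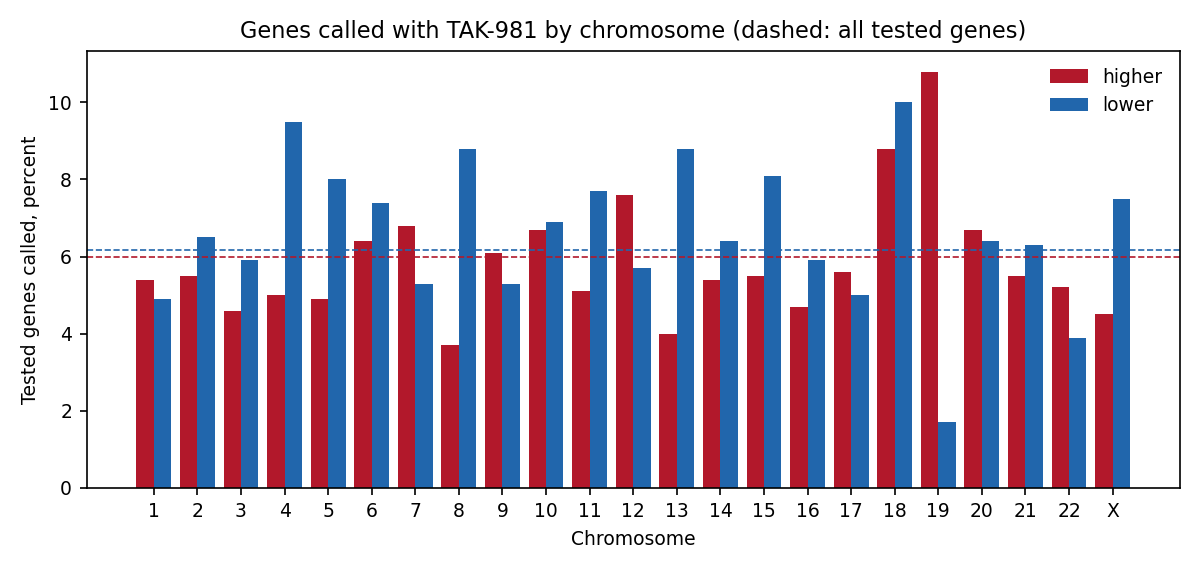
Percent of the tested genes of each chromosome that were called higher (red) or lower (blue) with TAK-981, with dashed lines at the percent over all tested genes. Chromosome 19 has 10.8% higher and 1.7% lower, and the other chromosomes lie between 3.7% and 8.8% higher and between 3.9% and 10.0% lower.

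Among chromosome 19 zinc finger genes the clearest rises were ZNF844 from 53.5 and 58.8 CPM to 142 and 137 CPM (log2 fold change 1.32, SE 0.0979, adjusted p = 9.65e-05), ZNF442 from 3.26 and 2.69 CPM to 14.9 and 16.3 CPM (2.39) and ZNF850 (0.77). Of 227 tested zinc finger genes elsewhere 16 rose and 6 fell, a share of 7.0% higher that is near the 5.98% of all genes. They include ZNF467 (3.73), ZNF821 (2.15) and the stem cell factor ZNF521 (4.32). The rises in the chromosome 19 list numbered 59 of 236 with the 4 libraries alone and 3, 5, 3 and 5 without vehicle replicate 1, vehicle replicate 2, TAK-981 replicate 1 and TAK-981 replicate 2. Reads that map to several paralogs could be split or dropped, so values of single zinc finger genes are uncertain.

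Genes of the matrix and the synapse rose in part. Of 20 tested collagens and matrix proteins 6 rose and 0 fell (30.0% higher). COL6A3 rose from 0.651 and 0.555 CPM to 5.54 and 6.68 CPM (log2 fold change 3.33, SE 0.359, adjusted p = 0.000772), and COL18A1, the source of endostatin, from 1.998 and 2.18 CPM to 4.86 and 5.56 CPM (1.31). LAMA5 had 0 counts in vehicle and 14 and 19 with TAK-981, COL4A1 had 1 and 0 and then 17 and 9, and the elastin gene ELN rose by 0.54 on the log2 scale. The other 23 matrix genes of the list were too low to be tested, and the tested ones that were low in vehicle passed the filter through the TAK-981 libraries or the venetoclax arm. Of 23 tested synapse and neuronal genes of 53, 7 rose (30.4%) and 2 fell (8.7%), against 5.98% and 6.18% of all genes. Here too, genes low in vehicle could pass the filter through treated libraries, so these are not shares of the 53. Rises included DLG4, the postsynaptic scaffold PSD-95, from 0.782 and 0.299 CPM to 3.27 and 2.30 CPM (2.37), the presynaptic scaffold PCLO (1.40) and UNC13B (0.55). SHANK2 (-0.71) and SYT11 (-0.49) fell. RCOR2, a corepressor that works with REST, rose from 1.09 and 1.24 CPM to 4.99 and 6.04 CPM (2.24, SE 0.253, adjusted p = 0.000988). COL18A1, COL4A1, ELN, LAMA5, DLG4, PCLO, UNC13B, SHANK2 and SYT11 lost the call when 1 or more of these 4 libraries was left out singly. The rises in the matrix list then numbered 2, 2, 3 and 2 and those in the synapse list 2, 1, 1 and 2, in the order vehicle replicate 1, vehicle replicate 2, TAK-981 replicate 1 and TAK-981 replicate 2.

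Calcium signalling genes were mostly not called, with NFATC1 and RYR2 as large rises among them. NFAT factors are held in the cytoplasm by phosphorylation and enter the nucleus when calcineurin, switched on by calcium, removes the phosphates, and RCAN proteins bind calcineurin. Of 16 tested genes of this group NFATC1, NFATC3 (log2 fold change 0.37), RCAN1 (0.62) and RCAN3 (1.01) rose and NFATC2 fell (-0.51). RCAN1 stood at 27.6 and 29.2 CPM in vehicle and 45.0 and 42.1 CPM with TAK-981 (SE 0.111, adjusted p = 0.00801), and NFATC2 at 191 and 176 CPM and then at 128 and 129 CPM (SE 0.093, adjusted p = 0.00861). NFATC1 changed by far more than the other 4 called members, 11 of the 16 were not called, and the median of the list was -0.03. Of 21 tested calcium channels and pumps, RYR2 and ATP2A3, a pump that fills the endoplasmic reticulum with calcium (1.36), rose and the channel subunit CACNB1 fell (-1.01), 9.5% higher and 4.8% lower with a median of 0.01. With the 4 libraries alone 6 of these 21 were higher and 4 lower. NFATC1, RYR2 and ATP2A3 kept their calls without each of the 4 libraries, and NFATC2, NFATC3, RCAN1, RCAN3 and CACNB1 did not.

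In developmental signalling, LEF1 fell and BCL9L rose (1.03) among 23 Wnt genes, 4.3% each way and under the share of all genes. With the 4 libraries alone 3 Wnt genes fell and 1 rose. Of 17 Notch genes 2 rose (11.8%) and 1 fell (5.9%), against 5.98% and 6.18% of all genes. NRARP, a feedback gene of Notch, rose from 0.261 and 0.0854 CPM to 2.54 and 3.48 CPM (4.07, SE 0.558, adjusted p = 0.00234), MAML2 rose (1.29) and the ligand JAG1 fell (-0.50). Of 29 TGF-beta and BMP genes 5 rose (17.2%) and 1 fell (3.4%). The rises were ID1 from 3.69 and 3.33 CPM to 13.7 and 14.3 CPM (1.996, SE 0.21, adjusted p = 0.000659), the coreceptor ENG (1.10), SKIL (1.02), the ligand TGFB1 (0.66) and the inhibitory SMAD6 (1.94), while SMAD3 fell (-0.49). ID1, an inhibitor of basic helix-loop-helix factors, is a direct BMP target, and NOG, which fell, is an antagonist outside the cell. KG1a is known for a fusion of FGFR1, and FGFR1 stood at 107 and 102 CPM and then at 105 and 110 CPM (0.04, SE 0.0894, adjusted p = 0.83). Of 29 genes of that pathway and its feedback, 4 rose (13.8%) and 1 fell (3.4%). The cytokine receptor CSF2RB (2.74), PIM1 (0.41), DUSP6 (0.74) and FRS2 (0.37) rose and PIM2 fell (-0.78). Without at least 1 of the 4 libraries MAML2, JAG1, ENG, SKIL, TGFB1, SMAD6, SMAD3 and those 5 genes were not called.

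Genes of apoptosis were examined because the study pairs TAK-981 with a BCL2 inhibitor. BCL2, the target of venetoclax, stood at 289 and 298 CPM in vehicle and 150.2 and 158 CPM with TAK-981, 1.91-fold lower (log2 fold change -0.93, SE 0.0933, adjusted p = 0.000503), and kept its call without each of the 4 libraries. BCL2L11, the BH3-only protein BIM, rose from 25.1 and 23.8 CPM to 36.7 and 37.3 CPM (0.60, SE 0.112, adjusted p = 0.0101), and BCL2L2 rose (0.46). MCL1 and BCL2L1, the other main survival proteins of the family, had log2 fold changes of 0.18 (SE 0.0931, adjusted p = 0.244) and 0.44 (SE 0.169, adjusted p = 0.133). The effectors BAX and BAK1 had 0.13 and 0.21 (adjusted p = 0.756 and 0.789). Thus 3 of the 15 tested family members were called, BCL2 lower (6.7%) and 2 higher (13.3%), with a family median of 0.21. Of all genes 6.18% were lower and 5.98% higher. Of 30 caspase and death receptor genes 5 rose (16.7%) and 4 fell (13.3%). The inhibitor of apoptosis BIRC3 fell from 146 and 154 CPM to 69.8 and 66.4 CPM (-1.14, SE 0.117, adjusted p = 0.000609), and CFLAR fell (-0.54). The death receptor FAS fell too, from 4.91 and 5.51 CPM to 2.79 and 1.66 CPM (-1.21). The inflammasome sensor NLRP1 (2.81), MLKL (0.55) and XIAP (0.43) rose. BCL2L11, BCL2L2, CFLAR, FAS, NLRP1, MLKL and XIAP lost the call when 1 or more of these 4 libraries was left out singly, and BIRC3 kept its call in the 4 fits.

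INSIG1, among the 15 largest rises, encodes an endoplasmic reticulum protein that holds the sterol sensor SCAP and so restrains sterol synthesis. It stood at 237 and 214 CPM in vehicle and 2577 and 2455 CPM with TAK-981, 11.2-fold higher (log2 fold change 3.48, SE 0.17, adjusted p = 1.07e-05). Its paralog INSIG2 stood at 100.3 and 108 CPM and then at 78.6 and 89.8 CPM (-0.30) and was not called. Genes of cholesterol synthesis fell in 10 of 23 cases and rose in 0 (43.5% lower, median -0.47), among them FDPS from 201 and 181 CPM to 114 and 104 CPM (-0.81, SE 0.101, adjusted p = 0.00155), FDFT1 (-0.75), SQLE (-0.66), ACAT2 (-0.70) and EBP (-0.49). HMGCS1, an upstream enzyme, did not follow, at 717 and 627 CPM and then 1064 and 839 CPM (0.50), and was not called. Of the regulators, MYLIP, which degrades the LDL receptor (0.80), and the sterol exporter ABCG1 (0.49) rose with INSIG1, and the lipoprotein receptor LRP8 fell (-0.71). The falls in the synthesis list numbered 17 with the 4 libraries alone and 2, 2, 2 and 1 without vehicle replicate 1, vehicle replicate 2, TAK-981 replicate 1 and TAK-981 replicate 2. INSIG1, MYLIP and FDPS kept their calls in these 4 fits, and the other genes named here as changed did not in at least 1 of them.

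The genes around INSIG1 on chromosome 7 rose with it. Of 7 tested neighbours with a start within 500 kb, 5 rose and 0 fell. PAXIP1-AS2 rose from 441 and 424 counts to 1639 and 1365 (log2 fold change 1.94), PAXIP1, an adaptor in DNA repair and histone methylation, by 1.43, PAXIP1-AS1 by 1.19 and RBM33 by 1.05, while BLACE had 0 counts in vehicle and 23 in each TAK-981 library. SHH, whose start lies 514.5 kb from that of INSIG1, is among the 15 largest rises and stood at 2.69 and 2.43 CPM and then at 24.1 and 24.3 CPM (3.24, SE 0.226, adjusted p = 7.42e-05). Of the 5, RBM33 was not called without vehicle replicate 2. INSIG1 and the 5 were called higher with TAK-981 in venetoclax-treated cells as well. Around the 15 largest rises together, 28 of 175 neighbours within 500 kb rose and 6 fell, a larger share than the 5.98% of all genes that rose. Around PLEKHA6 4 of 6 rose. Around CUX2, NFATC1, DPEP1, CLEC4E, RYR2 and LOXHD1 0 neighbours rose. The neighbourhoods were looked at after the values were seen, and the 15 genes were chosen by their change in this same contrast, so the shares describe these loci only. Strand use in counting is not given in the sources used here, so reads of overlapping and antisense genes cannot be told apart.

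Other metabolic genes fell more often than they rose. SCD, the stearoyl-CoA desaturase, stood at 1692 and 1563 CPM and then at 915 and 850 CPM (log2 fold change -0.88, SE 0.13, adjusted p = 0.00327), and the desaturases FADS2 (-0.70) and FADS1 (-0.57), which overlap, and ELOVL5 (-0.58), ACACA (-0.44) and CPT1A (-0.46) fell. These were 6 falls and 0 rises in 28 fatty acid and phospholipid genes (21.4% lower, against 6.18% of all genes). In amino acid synthesis GPT2, GLUL (-0.75), PHGDH (-0.85), PSAT1 (-0.63) and ASNS (-0.67) fell, 5 of 19 (26.3%), and 0 rose. In glycolysis and the pentose phosphate pathway 4 of 29 fell, PFKP (-0.54), ENO2 (-0.71), SLC2A1 (-0.60) and TKT (-0.62), and the glucose transporter SLC2A3 rose from 312 and 355 CPM to 629 and 658 CPM (0.95). That is 13.8% lower and 3.4% higher, against 6.18% and 5.98% of all genes. The other 24 were not called, and the median of the list was -0.05. The 2 glucose transporters thus went opposite ways. GPT2 and GLUL kept their calls in the 4 fits without 1 vehicle or TAK-981 library, and the other genes of this paragraph did not in at least 1 of them. MYC fell from 290 and 305 CPM to 178 and 198 CPM (-0.66, SE 0.147, adjusted p = 0.0201) and MXD4, of its antagonist family, rose (1.11); each was not called without any 1 of the 4 libraries.

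Genes of immune recognition rose in part. Among 50 interferon-stimulated genes 6 rose and 2 fell, with a median of 0.29. IFITM3 rose from 21.8 and 25.2 CPM to 58.4 and 71.3 CPM (1.46), PARP9 by 0.54, LGALS3BP by 1.99, XAF1 by 0.63 and IFI44 by 0.45, and CMPK2 fell from 96.9 and 96.6 CPM to 50.3 and 47.0 CPM (-0.99). With the 4 libraries alone 26 of 49 rose and 2 fell, and without any 1 of the 4 libraries 1 rose and 1 fell. In the fit of the 4 libraries alone 16.2% of all genes were higher and 16.4% lower. In MHC class I presentation HLA-B rose from 187 and 216 CPM to 432 and 471 CPM (1.16, SE 0.155, adjusted p = 0.00205), HLA-E (0.67) and HLA-C (0.69) rose, and 17 of 20 genes were not called. Reads of the HLA genes could be shared between them. TMEM173, the DNA sensor adaptor STING (0.53), TNFRSF14 (1.07), the cytokine genes IL16 (0.70) and IL32 (0.78), and the receptor IL12RB2 (2.17) rose, and NCR3LG1, a ligand of natural killer cells, fell (-0.89). Butyrophilins rose in 4 of 6 tested cases (66.7%, against 5.98% of all genes), BTN1A1, BTN3A3 (0.85), BTN2A1 (0.53) and BTN3A1 (0.43), neighbours in the butyrophilin cluster of chromosome 6. IFITM3, CMPK2, HLA-B, IL16, BTN1A1 and BTN3A3 kept their calls in the 4 fits without 1 vehicle or TAK-981 library, and the other genes named here did not in at least 1.

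Markers of blood lineages were read against their low level in this line. Of 41 myeloid differentiation genes 13 were tested, and 8 of them rose: ITGAM, the CD11b integrin, from 2.95 and 2.95 CPM to 14.1 and 14.2 CPM (log2 fold change 2.26, SE 0.182, adjusted p = 0.000153), FCER1G (3.21), CD33 (2.22), the lectins CLEC7A (3.57) and CLEC12A (1.01), FCGR2A (1.08), MRC1, and MPO, which had 0 counts in vehicle and 11 and 12 with TAK-981. The summed level of the 13 was 26.9 and 28.5 CPM in vehicle and 75.6 and 76.4 CPM with TAK-981. Of the 28 not tested, 13 had 0 counts in the 4 libraries, among them S100A8, ELANE, PRTN3, FCGR1A and FCN1, and LYZ had 1 and 1 counts and then 2 and 1. Some other untested members had a few more counts with TAK-981: CEBPD had 0 and 0 and then 10 and 14, LILRB1 0 and 1 and then 9 and 9, and CSF1R 1 and 2 and then 9 and 5. Others were flat or lower: S100A9 had 3 and 1 and then 0 and 0, CD36 4 and 5 and then 3 and 3, and CD14 6 and 1 and then 5 and 2. Several defining genes of mature monocytes and granulocytes were thus at or near 0 in the 4 libraries, while a part of the list rose. A tested gene that is low in vehicle could pass the filter through its treated libraries, so the 8 of 13 is not a share of the list. Without vehicle replicate 1, vehicle replicate 2, TAK-981 replicate 1 and TAK-981 replicate 2 the rises numbered 5, 3, 5 and 4.

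Mast cell markers rose in 5 of 12 tested cases of 15, against 5.98% of all genes, with CPA3 from 36.4 and 46.0 CPM to 108 and 97.0 CPM (log2 fold change 1.31, SE 0.135, adjusted p = 0.000603) and GATA2 (0.77), and the near-identical tryptases TPSAB1 and TPSB2, which share reads, from 1 and 1 counts each to 19 and 16 and to 19 and 30. ENPP3 fell (-1.47) and FCER1A had 0 counts in the 4 libraries. Megakaryocyte genes rose in 4 of 14 tested cases of 21, with the thrombin receptors F2R from 25.5 and 26.04 CPM to 85.1 and 79.4 CPM (1.67, SE 0.108, adjusted p = 5.16e-05) and F2RL3 from 1.13 and 1.11 CPM to 9.11 and 8.02 CPM (2.93), NFE2 (0.99) and GP6 (3.13), and PF4 and PPBP were at 0 counts. Endothelial markers rose in 8 of 13 tested cases of 21, with TEK from 0.695 and 0.768 CPM to 5.76 and 5.51 CPM (2.94), FLT4 (3.35), TIE1 (2.27), ENG, ESAM (0.53) and ERG (0.78), of which ERG is also a stem cell gene, and CDH5, CLDN5 and NOS3 were at 0 counts. In these lists some genes moved while defining genes were absent. As in the myeloid list, low genes could pass the filter through their treated libraries, so these are not shares of the whole lists. Without vehicle replicate 1, vehicle replicate 2, TAK-981 replicate 1 and TAK-981 replicate 2 the rises numbered 3, 2, 4 and 4 in the mast cell list, 3, 3, 2 and 2 in the megakaryocyte list and 3, 3, 4 and 3 in the endothelial list. In the stem cell list GATA2, ERG, TAL1 (0.37), GFI1 (0.62), HHEX (0.43) and IKZF2 (1.27) rose and MSI2 (-0.64), IKZF1 (-0.60) and CD38 (-1.56) fell. HOXB2 rose from 52.5 and 51.9 CPM to 112 and 112 CPM (1.11, SE 0.147, adjusted p = 0.00204). T cell and natural killer genes summed to 158 and 159 CPM in vehicle and 162 and 177 CPM with TAK-981, with CD28 from 3.56 and 3.16 CPM to 0.430 and 0.428 CPM (-2.95) and CD3E (-0.82) lower and NKG7 (0.65) higher. CPA3, TPSB2, F2R, F2RL3, TEK, FLT4, HOXB2 and CD28 kept their calls in the 4 fits without 1 vehicle or TAK-981 library, and the other genes of this paragraph named as changed did not in at least 1.

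Few or no members of some large gene groups were called. Of 82 cytosolic ribosomal protein genes 0 were called by edgeR's quasi-likelihood test, 0 had an unadjusted p under 0.05 and 0 were called by DESeq2 or limma-voom, with a median of 0.04, and for TAK-981 in venetoclax-treated cells 9 were higher and 1 lower. Of 31 proteasome genes 0 were called, with 2 higher at an unadjusted p under 0.05 and 0 called by the other tools, while 2 were higher with the 4 libraries alone and 11 lower for TAK-981 in venetoclax-treated cells. Of 75 respiratory chain genes 1 rose and 1 fell, the latter being SDHA (-0.37), with 3 and 4 in the fit of the 4 libraries alone and 1 and 12 for TAK-981 in venetoclax-treated cells. Of 66 splicing factor genes SRSF8 rose (0.63) and 0 fell by edgeR, with 5 lower at an unadjusted p under 0.05 and 0 called lower by DESeq2 or limma-voom. In that list 4 were higher and 11 lower with the 4 libraries alone, and 2 and 38 for TAK-981 in venetoclax-treated cells. In 19 NRF2 and iron genes 0 were called by edgeR, with 5 at an unadjusted p under 0.05 and 1 called by DESeq2. Among chaperones, HSPB1 rose from 4.78 and 5.21 CPM to 12.2 and 16.4 CPM (log2 fold change 1.52), and the endoplasmic reticulum chaperone HSPA5 rose from 254 and 279 CPM to 419 and 405 CPM (0.63). SDHA, SRSF8 and HSPA5 lost the call when 1 or more of these 4 libraries was left out singly.

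The same drug was also given to cells that received venetoclax, which gives its effect in libraries whose levels the comparison above does not use. Both comparisons share the same gene filter and the same estimate of spread. Of the 1562 genes, 1523 (97.5%) changed in the same direction there and 1265 (81.0%) were called in it, which is 24.9% of the 5086 genes called in that setting (39.6% of genes tested, 17.6% higher and 22.0% lower). By direction, 644 of the 768 rises (83.9%) and 621 of the 794 falls (78.2%) were called again. The median log2 fold change of the 768 was 1.01 alone and 1.28 with venetoclax, and that of the 794 was -0.64 and -0.69. NFATC1, INSIG1 and TRIM28 had log2 fold changes of 6.83, 3.31 and 2.31 in venetoclax-treated cells, and COL5A1 had 2 counts with venetoclax and 1003 with both drugs. AHRR (log2 fold change -0.47 alone and 0.73 with venetoclax), CPT1A (-0.46 and 0.51), TMSB10 (0.74 and -0.36) and TWF1 (0.56 and -0.58) were called in opposite directions. For these 4 the difference itself was not called, with adjusted p-values of the interaction from 0.0845 to 0.0979. The interaction was called for 4 genes in all (0.0311%), with 2427 genes at an unadjusted p under 0.05.

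**Figure D5:**
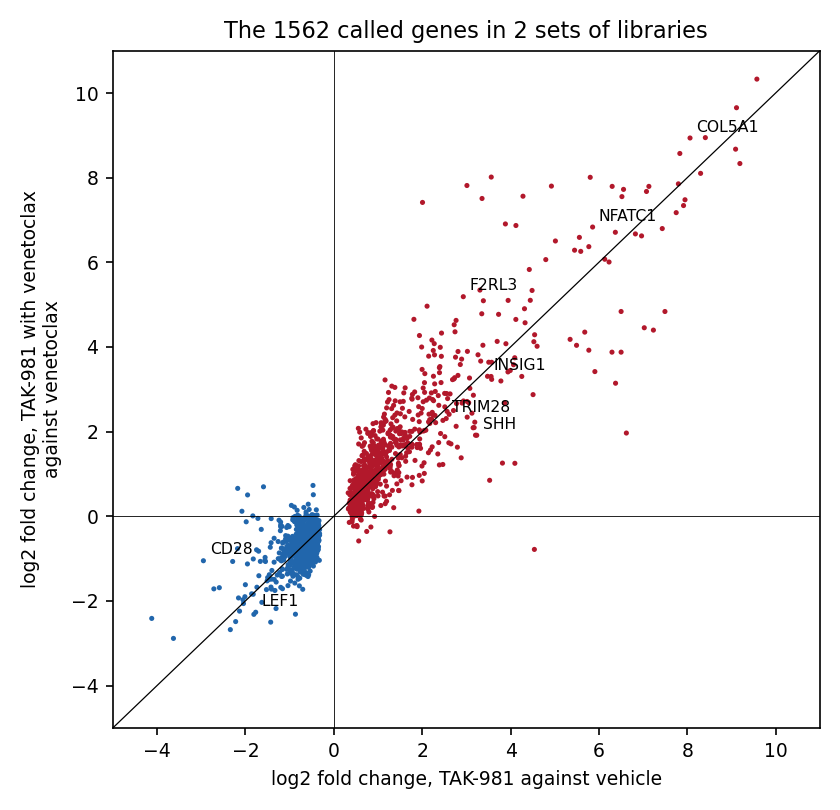
Log2 fold change of TAK-981 in venetoclax-treated cells (y axis) against that of TAK-981 alone (x axis) for the 1562 genes called in the latter, red for higher and blue for lower, with a line at equal change. The 2 axes use different libraries, and 1523 of the 1562 points lie in the quadrants of equal sign.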

How the data were processed

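RNA of 8 KG1a libraries was sequenced in single reads, per the labels' protocols. How the libraries were made is given in more than 1 way: ribosomal RNA depletion in the series design, a SMART-Seq low-input kit in the protocols. RNAs without a poly(A) tail carry that doubt. The deposited values are raw counts of reads per gene for 25168 genes on hg38. The submitters' processing notes name Trimmomatic, STAR 2.6.0, HTSeq 0.11.1 and edgeR. The strand setting, the annotation release and the treatment of reads with several places are in none of the sources used here.

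One quasi-likelihood model (edgeR 4.0.16 with limma 3.58.1 in R 4.3.3) covered the 8 libraries, with TMM scaling, filterByExpr by group (12843 genes left), robust dispersion and a two-sided F test. Adjusted p-values are Benjamini-Hochberg values over the 12843 genes from that model where no other tool is mentioned, with 0.05 as the threshold. CPM values use the scaled library sizes. The SE, the size of the log2 fold change divided by the root of F, is approximate. The procedure was tested on simulated data. Other settings tried were the size factors and the test of DESeq2 1.42.0, limma-voom, 2 other filters, the replicate block, a test against a 1.5-fold change, the 4 libraries alone, the fit without venetoclax libraries, and each library left out.

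The 73 gene lists (1648 of 1665 symbols matched) and the rule for named genes were chosen with earlier results of these data known, so list counts are descriptions. The rule takes the 15 largest rises and falls of at least 5 CPM without overlap of groups, up to 10 genes with at most 3 vehicle counts and at least 50 with TAK-981, up to 6 called members of a list by smallest p, and a set of target, apoptosis and marker genes. Other members are named to complete a list, and neighbours of the largest rises after their values were seen. Promoter windows are RefSeq's (GRCh38.p14). Some genes of the lists are not reported here by name.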

Additional observations from a re-analysis of the deposited data

Results flagged for a closer look

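For 4 genes the TAK-981 effect differed between cells with and without venetoclax by the test of the difference itself, each with an adjusted p of 0.0385 for the interaction in edgeR's quasi-likelihood test. The gene SIGLEC6, a sialic acid lectin, had a difference of 3.81 on the log2 scale: it stood at 7.51 and 8.49 CPM with vehicle, 4.64 and 7.06 CPM with TAK-981, 0.762 and 0.779 CPM with venetoclax and 6.54 and 9.54 CPM with both. For RAB37, a small GTPase of secretory vesicles, the difference was 1.42, with 51.3 and 57.4 CPM, then 169 and 164 CPM, against 22.6 and 22.8 CPM, then 175 and 197 CPM. RAB37 rose with TAK-981 in both settings. For the host gene MIR4697HG the difference was 1.34, with 69.9 and 63.0 CPM, then 73.4 and 74.8 CPM, against 32.1 and 27.0 CPM, then 83.0 and 83.5 CPM. For MTSS1, an actin-binding membrane protein, the difference was 1.14, with 49.6 and 45.8 CPM, then 73.1 and 67.9 CPM, against 44.0 and 43.7 CPM, then 142 and 145 CPM. For each of the 4 genes both venetoclax libraries lay below both vehicle libraries, a difference that was not tested here. With any of the 6 other libraries left out the 4 differences were not called, and with venetoclax replicate 1 or 2 left out their adjusted p-values were 0.000871 or lower.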

How the results depend on the processing

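Among 298 named genes, 0 changed direction under any alternative run. Their calls ended for 144 to 160 without 1 vehicle or TAK-981 library, for 184 in the test against a 1.5-fold change, for 10 with DESeq2 and for 0 with the replicate block. Calls with TAK-981 numbered 267 against a 1.5-fold change (220 higher, 47 lower), 4096 with the 4 libraries alone (2037, 2059) and 3863 without both venetoclax libraries (1860, 2003); without a filter 1171 were higher. Leaving out each library gave 336 to 3879 calls, 238 to 1902 higher and 97 to 2024 lower. TAK-981 in venetoclax-treated cells gave 1002 against a 1.5-fold change and 2386 to 7204 without 1 library. The interaction gave 8 with DESeq2's size factors, 1098 without a filter, 24 with the replicate block, 9 with limma-voom, 296 with DESeq2, and 0 to 4440 without 1 library. Against a 1.5-fold change edgeR called 0, with 422 at an unadjusted p under 0.05, and the fits without 1 library that called 0 had 1205 to 1890.

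With the replicate block 1739 genes were called for TAK-981 against vehicle, 844 higher and 895 lower. The labels number replicates 1 and 2 in each group without saying that a number marks a shared culture or day. Deviations of same-numbered vehicle and TAK-981 libraries correlated at 0.0231 across 9885 genes, and those of the other pairs of groups at -0.0407, 0.383, 0.35, 0.173 and 0.143. With 2 numbers per group this is a hint at most, and the numbers were not taken to pair the samples. With 2 libraries per group and totals from 13204588 to 26304900 counts, a gene at 1 CPM rests on 13.1 to 25.7 counts a library. Genes under 1 CPM rest on fewer.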

Other observations

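Some groups outside the lists described above moved in part. Of 183 tested solute carriers 15 rose and 15 fell (8.2% each way), near the 5.98% and 6.18% of all genes. Their median log2 fold change was -0.006. The bicarbonate transporter SLC4A4 rose from 25.1 and 27.3 CPM to 56.9 and 60.6 CPM (log2 fold change 1.16, SE 0.113, edgeR adjusted p = 0.000427). The creatine transporter SLC6A8 (2.15), SLC45A3 (2.89) and the mitochondrial carrier SLC25A24 (0.91) rose too. The purine carrier SLC43A3 fell from 225 and 228 CPM to 117 and 110 CPM (-0.999), and the choline transporter SLC44A1 fell (-0.82). Of 30 adhesion genes 4 rose and 4 fell (13.3% each way), with ITGB2 (-0.81) and ITGA4 (-0.56) lower and ITGAM and CDH23 (3.15) higher. ITGAM and ITGB2, which form 1 integrin, thus changed in opposite directions.

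Among motor proteins MYH15, a slow muscle-type myosin, rose from 0.304 and 0.128 CPM to 10.2 and 7.81 CPM (log2 fold change 5.35, SE 0.444, edgeR adjusted p = 0.00019), with MYO7A (2.21) and MYO18A (0.90), while MYH10 fell (-0.62). Clustered histone genes were called in 3 of 37 tested cases, HIST1H1C (1.38), HIST1H2BK (1.31) and HIST1H3E (1.58), with a list median of 0.47. These 3 rises are 8.1% of those tested, against 5.98% of all genes. With the 4 libraries alone 8 of 24 rose and 0 fell, against 16.2% of all genes higher, and 26 of 37 were higher with TAK-981 in venetoclax-treated cells. Their reads could be shared between copies, and the library method bears on them. MYH15, MYO7A, SLC4A4, SLC6A8, SLC45A3, SLC25A24, SLC43A3 and SLC44A1 kept their calls without each of the vehicle and TAK-981 libraries, and the other genes of both paragraphs, apart from ITGAM, lost them without at least 1.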
